A study of Mus musculus with 16 samples.

Results

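The genes described here are 9 members of the TGF-beta and activin branch of signalling, out of 22367 protein-coding genes of the annotation. They are the ligand genes Tgfb1, Tgfb2 and Tgfb3, the receptor genes Tgfbr1, Tgfbr2 and Tgfbr3, the activin subunit genes Inhba and Inhbb, and Fst, which encodes the activin antagonist follistatin. They were chosen by name and not by a rule on their peaks, though earlier results of these data were known. For each gene, the peaks within 3000 bp of any annotated transcript start and the peaks over the gene body were collected from 12 lists of ChIP-seq peaks.

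TGF-beta ligands are secreted in a latent form, and once released they bind the type II receptor TGFBR2, which recruits and phosphorylates the type I receptor TGFBR1. The receptor pair then phosphorylates SMAD2 and SMAD3, which enter the nucleus with SMAD4, while activins reach the same SMADs through receptors of their own. TGFBR3, also called betaglycan, presents ligands to the signalling receptors, and follistatin binds activin outside the cell and keeps it from its receptors. In the hair follicle, TGF-beta2 from the dermal papilla is known to help bulge stem cells into anagen, and TGF-beta1 is known for its part in catagen.

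The lists cover 3 histone marks, H3K4me3 (found at active and poised gene starts), H3K27me3 (the Polycomb mark of silent genes) and H3K9me3 (a mark of heterochromatin), in 4 sorted cell populations. The cells came from the skin of CD1 x FVB wild-type mice labelled as male. EA-HFSCs and LC-HFSCs were both sorted as CD34+ / α6-integrin+ cells, the bulge stem cells of the hair follicle. EA-HFSCs were taken in early anagen at postnatal day 22 to 25, when they divide, and LC-HFSCs in late catagen at postnatal day 38 to 44, when they rest. The CD34- / α6-integrin+ cells of the same ages, here called non-EA-HFSCs and non-LC-HFSCs, are not 1 cell type but mostly epidermis and lower outer root sheath. Each preparation pooled 15 to 20 mice. Reads were pooled before peaks were called, so there is 1 list for each population and mark, no difference can be set against replicate error, and nothing was tested. The 4 IgG samples served as background for the peak calling and have no list of their own.

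The sort used CD34, and Cd34 had an H3K4me3 peak at a start in both HFSC lists and in neither non-HFSC list, and an H3K27me3 peak in both non-HFSC lists and in neither HFSC list. The other 6 bulge marker genes had H3K4me3 in every population and so did not separate the sorted cells by this mark. H3K4me3 marked 4 of 4 basal keratinocyte genes and 0 of 4 leukocyte genes in every population, whereas fibroblast genes were marked in 3 to 4 of 5 and melanocyte genes in 2 to 3 of 5. The lists differ in length. The H3K4me3 lists hold 14718 to 24498 peaks, the H3K27me3 lists 1909 in LC-HFSCs and 15273 to 25534 in the other populations, and the H3K9me3 lists 1414 in LC-HFSCs and 17873 to 42277 in the others. The EA-HFSC list of H3K9me3 stands apart, since 47.9% of all genes had an H3K9me3 peak at a start in it, against 0.505% in LC-HFSCs. Read numbers cannot be had from peak lists. By the study's methods, LC-HFSCs had the larger number of reads and EA-HFSCs the smaller. The part of depth in any difference was not tested.

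The promoter sequences of 5 of the genes are shown. H3K4me3 at Tgfb3 and H3K27me3 at Inhbb, Fst and Tgfbr3 differed between the populations. H3K27me3 also differed at Tgfb2, which is not shown. Inhba was the gene with the narrowest H3K4me3 peaks. Each is the 250 bp just upstream of the annotated gene start in mm9, written 5′ to 3′ in the direction of transcription. Capitals mark matches to TATAAA, the letters searched for as a TATA box. In the Fst promoter they mark a GC box, GGCGGG, found on the opposite strand and so printed as its reverse complement.
Tgfb3 promoter (chr12:87419992-87420241, minus strand): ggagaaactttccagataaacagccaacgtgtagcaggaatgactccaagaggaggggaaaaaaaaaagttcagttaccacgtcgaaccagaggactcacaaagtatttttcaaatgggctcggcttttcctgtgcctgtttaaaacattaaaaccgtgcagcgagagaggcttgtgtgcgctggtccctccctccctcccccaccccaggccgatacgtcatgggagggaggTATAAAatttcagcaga
Inhba promoter (chr13:16103434-16103683, plus strand): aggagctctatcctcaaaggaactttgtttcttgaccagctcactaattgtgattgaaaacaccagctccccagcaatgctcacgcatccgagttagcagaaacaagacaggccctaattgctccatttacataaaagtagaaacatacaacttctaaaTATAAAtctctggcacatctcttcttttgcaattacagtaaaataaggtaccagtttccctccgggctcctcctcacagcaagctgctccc
Inhbb promoter (chr1:121318826-121319075, minus strand): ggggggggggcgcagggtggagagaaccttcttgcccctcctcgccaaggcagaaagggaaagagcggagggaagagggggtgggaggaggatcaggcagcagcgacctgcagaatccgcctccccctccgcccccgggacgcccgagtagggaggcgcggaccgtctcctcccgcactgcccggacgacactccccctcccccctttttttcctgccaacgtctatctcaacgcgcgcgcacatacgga
Fst promoter (chr13:115249160-115249409, minus strand): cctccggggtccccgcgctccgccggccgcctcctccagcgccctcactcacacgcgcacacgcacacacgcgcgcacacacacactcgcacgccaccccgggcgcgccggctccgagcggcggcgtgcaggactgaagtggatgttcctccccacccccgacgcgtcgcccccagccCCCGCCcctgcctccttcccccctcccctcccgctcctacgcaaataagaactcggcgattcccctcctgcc
Tgfbr3 promoter (chr5:107718649-107718898, minus strand): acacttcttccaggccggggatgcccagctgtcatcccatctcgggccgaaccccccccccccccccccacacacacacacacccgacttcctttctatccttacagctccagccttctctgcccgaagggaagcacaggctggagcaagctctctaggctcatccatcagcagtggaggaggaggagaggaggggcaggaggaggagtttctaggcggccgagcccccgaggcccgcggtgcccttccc

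The Fst promoter held 32 CpG dinucleotides in these 250 bp and the Inhbb promoter 21, against 10 in the Tgfbr3 promoter, 9 in the Tgfb3 promoter and 3 in the Inhba promoter. The base composition followed the same order in the 1000 bp centred on the gene start, where the GC content was 69.6% for Fst, 67.8% for Inhbb, 62.5% for Tgfbr3, 54.9% for Tgfb3 and 53.8% for Inhba. Over the 9 genes the median GC content was 64.1% and the median CpG observed-to-expected ratio was 0.736, against 54.7% and 0.549 over 22355 genes. The lowest ratio was 0.527 for Tgfb2 and the highest 0.859 for Tgfbr1. Searched on both strands, TATAAA was found in the 250 bp upstream of Tgfb2, Tgfb3 and Inhba and in 12.3% of all promoters. GGCGGG was found upstream of Tgfb1, Tgfbr1 and Fst and in 38.9% of all promoters. CCAAT (the CCAAT box) was found upstream of Tgfb2, Tgfbr1 and Tgfbr2 and in 35.0% of all promoters. CAGACA, the core of a Smad-binding element with 1 more base, was found upstream of Tgfb2 and in 15.3% of all promoters. These are matches of letters and not mapped binding sites.

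H3K4me3 lay within 3000 bp of a transcript start at 9 of 9 genes in each of the 4 populations. Over all protein-coding genes the share was 62.4% in EA-HFSCs, 55.9% in LC-HFSCs, 61.7% in non-EA-HFSCs and 58.8% in non-LC-HFSCs, and 54.9% of genes had such a peak in all 4 populations. Over the gene body, H3K4me3 was found at 9 of 9 genes in EA-HFSCs, 8 in LC-HFSCs and 9 in each non-HFSC population, against 63.1%, 56.0%, 62.2% and 59.1% of all genes. The gene without an H3K4me3 peak over its body in LC-HFSCs was Tgfb3. H3K27me3 and H3K9me3 were found at fewer of the genes and differed more between the populations.

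**Figure D1:**
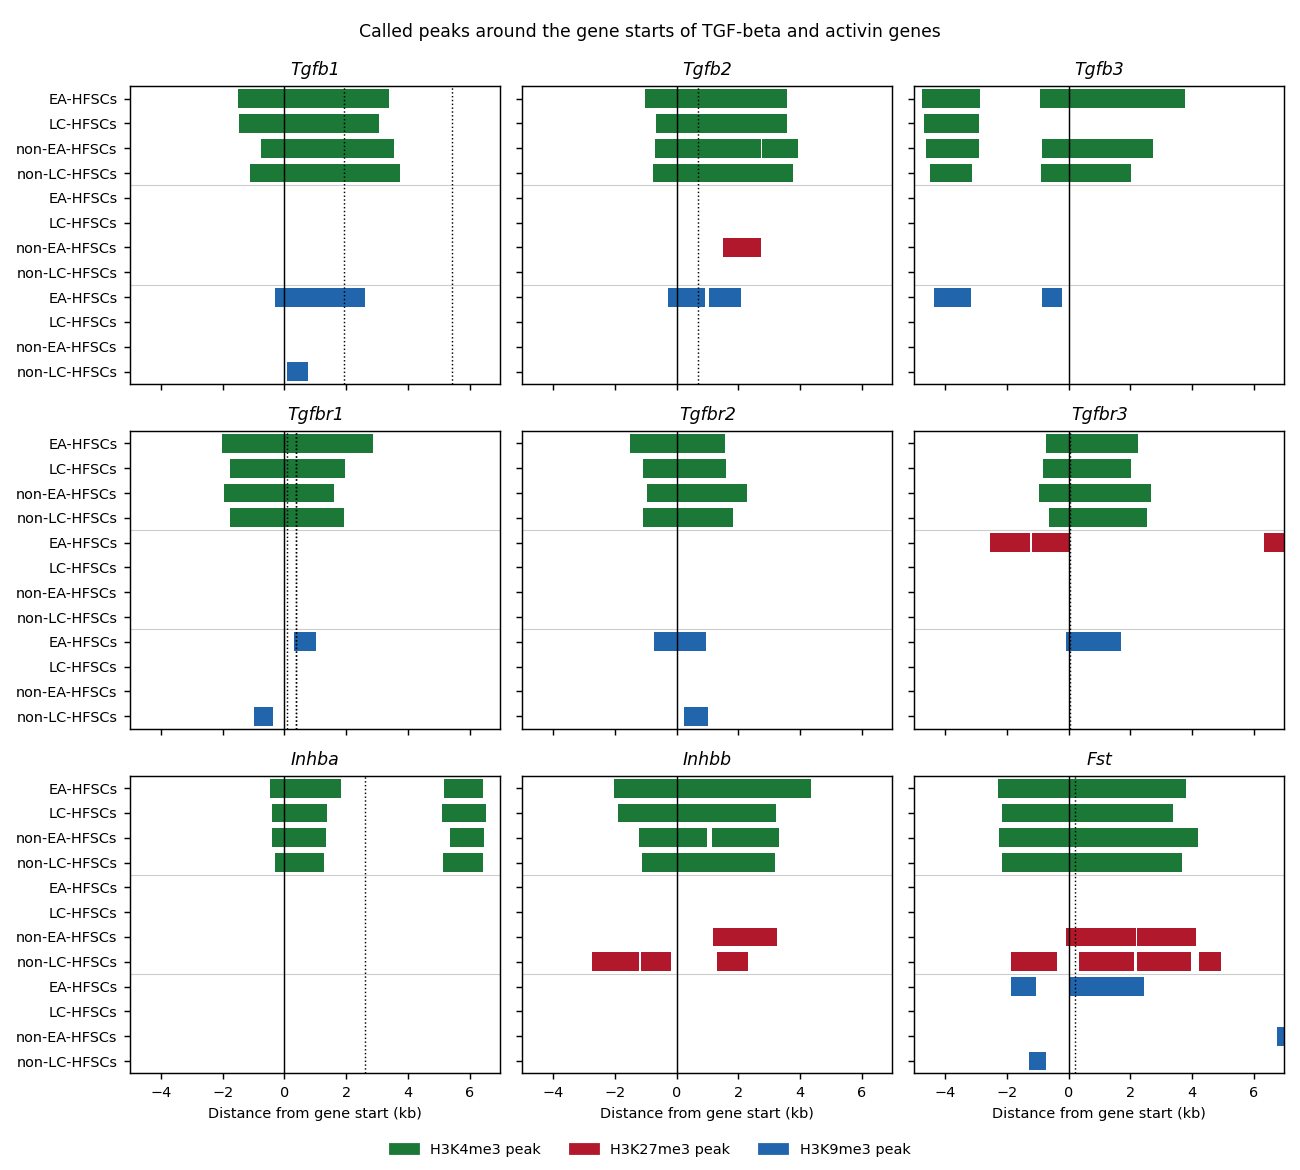
Peaks from 5 kb upstream to 7 kb downstream of the gene start of each of the 9 genes, with 1 row per population for each mark. The x axis is the distance from the gene start in kb along the direction of transcription, solid lines mark the gene start and dotted lines other transcript starts. H3K4me3 covers every gene start in every population except that of Tgfb3 in LC-HFSCs, and H3K27me3 lies at Tgfbr3 in EA-HFSCs and at Tgfb2, Inhbb and Fst in non-HFSCs.

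Among the ligands, Tgfb1 (chr7:26472021-26490096, plus strand, 7 exons) had a broad H3K4me3 peak over its start in every population. The peak ran from 1503 bp upstream to 3396 bp downstream of the gene start in EA-HFSCs, a width of 4900 bp, and was 4531 bp wide in LC-HFSCs, 4295 bp in non-EA-HFSCs and 4878 bp in non-LC-HFSCs. These widths exceeded those of 86.7% to 96.6% of genes with an H3K4me3 peak in the same list. No H3K27me3 peak was found at Tgfb1 in any population, and the nearest lay 10.1 kb away in non-EA-HFSCs and 317 kb away in EA-HFSCs. H3K9me3 covered 2920 bp over the start and the first exon in EA-HFSCs and 686 bp in non-LC-HFSCs, with a further peak of 609 bp in intron 5 in non-LC-HFSCs.

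Tgfb2 (chr1:188447065-188529871, minus strand, 7 exons) also had H3K4me3 over its start in every population. The peak was 4602 bp wide in EA-HFSCs, 4223 bp in LC-HFSCs and 4558 bp in non-LC-HFSCs, and in non-EA-HFSCs it was split into peaks of 3424 and 1172 bp. Non-EA-HFSCs were the only population with H3K27me3 at Tgfb2, as a peak of 1205 bp centred in intron 1 that lay whole within the H3K4me3 peak. Its score was 45.1, in the lowest 11.6% of that list; the peak caller turned each p-value into a score by taking −log10 and multiplying it by 10, and kept H3K27me3 peaks from a p-value of 0.0001, a score of 40. In EA-HFSCs, H3K9me3 peaks of 1209 and 1038 bp lay over the start and in intron 1, and a peak of 522 bp lay 25.6 kb downstream in the same intron.

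Tgfb3 (chr12:87397694-87419991, minus strand, 7 exons) was the gene at which H3K4me3 differed most between the populations. In EA-HFSCs a peak of 4699 bp ran from 923 bp upstream to 3775 bp downstream of the gene start. The peak was 3595 bp wide in non-EA-HFSCs and 2913 bp wide in non-LC-HFSCs, and no H3K4me3 peak covered the gene start or any part of the gene body in LC-HFSCs. Of the 12757 genes whose start base lay under an EA-HFSC peak, 10.5% had that base under no LC-HFSC peak, and Tgfb3 was the 1 such gene among the 9.

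The LC-HFSC peak that counts as a Tgfb3 peak under the 3000-bp rule touched the window with 87 bp only. It ran from 4686 to 2914 bp upstream of Tgfb3, with a width of 1773 bp, and lay over the start of 1700019E19Rik, a gene on the opposite strand whose start is 3522 bp upstream. That neighbour had an H3K4me3 peak in every population, 1883 bp wide in EA-HFSCs, 1744 bp in non-EA-HFSCs and 1393 bp in non-LC-HFSCs. Within the 3000-bp window the LC-HFSC to EA-HFSC ratio of covered length at Tgfb3 was 0.0214, lower than at all but 10.7% of genes, and it was 0 with a window of 1000 bp. The non-LC-HFSC to non-EA-HFSC ratio at Tgfb3 was 0.786, with 28.6% of genes lower. Tgfb3 carried no H3K27me3 in any population, the nearest peak lying 113 to 134 kb away. Its only H3K9me3 peak at the start was in EA-HFSCs, 676 bp wide and from 870 to 195 bp upstream.

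Among the receptors, Tgfbr1 (chr4:47366094-47427803, plus strand, 9 exons), which encodes the type I receptor kinase, had an H3K4me3 peak of 4871 bp in EA-HFSCs, 3745 bp in LC-HFSCs, 3579 bp in non-EA-HFSCs and 3711 bp in non-LC-HFSCs. The peak was thus widest in EA-HFSCs and of similar width in the other populations. H3K27me3 was absent from the lists at Tgfbr1, the nearest peak lying between 9.32 kb from the gene start in non-EA-HFSCs and 95.7 kb in LC-HFSCs. H3K9me3 was called over 726 bp in intron 1 in EA-HFSCs, with a score of 44.3, and over 593 bp upstream of the start in non-LC-HFSCs, with a score of 54.7.

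Tgfbr2 (chr9:115993415-116084383, minus strand, 8 exons), which encodes the ligand-binding type II receptor kinase, had H3K4me3 over its start in every population, 3079 bp wide in EA-HFSCs, 2664 bp in LC-HFSCs, 3231 bp in non-EA-HFSCs and 2922 bp in non-LC-HFSCs. A further H3K4me3 peak of 1250 bp lay in intron 2 in non-EA-HFSCs. No H3K27me3 was found at Tgfbr2, the nearest peak lying 97.1 kb from the gene start in EA-HFSCs. H3K9me3 covered 1674 bp over the start in EA-HFSCs, with a score of 92.9, and 797 bp just downstream of it in non-LC-HFSCs, with a score of 72.9. Tgfbr2 was the only 1 of the 9 genes with H3K9me3 over its body in non-EA-HFSCs, a peak of 1543 bp in intron 5. A non-LC-HFSC peak of 694 bp lay within the same stretch.

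Tgfbr3 (chr5:107535589-107718648, minus strand, 17 exons), the co-receptor gene and the longest of the 9 at 183 kb, had an H3K4me3 peak over its start in every population and H3K27me3 in EA-HFSCs only. The start peak of H3K4me3 was 2980 bp wide in EA-HFSCs, 2869 bp in LC-HFSCs, 3627 bp in non-EA-HFSCs and 3162 bp in non-LC-HFSCs. LC-HFSCs had no other H3K4me3 peak in the gene, whereas EA-HFSCs had 2 further peaks, non-LC-HFSCs 3 and non-EA-HFSCs 8, all of them in introns 1 to 4. These further peaks were weak, and the lowest H3K4me3 score kept was 50. They scored 74.8 and 173 in EA-HFSCs, 58.4 to 140 in non-LC-HFSCs and 52.3 to 245 in non-EA-HFSCs.

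In EA-HFSCs, 2 H3K27me3 peaks of 1315 and 1209 bp lay upstream of Tgfbr3, from 2560 bp upstream to 16 bp downstream of the gene start. A further 7 lay in introns 1 and 2, between 6324 and 48158 bp downstream. The widest was 4996 bp with a score of 238, and the highest-scoring was 2814 bp wide with a score of 381, at percentile 91.2 of the list. Together the peaks covered 15105 bp, or 8.25% of the gene body, against 0 bp in each of the other 3 populations. Of the start peaks, 734 bp of the 1209-bp peak overlapped the H3K4me3 peak, and the 1315-bp peak lay outside it. In the 20 kb to either side of the gene, EA-HFSCs had 3 more H3K27me3 peaks upstream and 2 downstream, and the other populations had none. The nearest H3K27me3 peak in the other populations was 112 to 419 kb from the gene start. Tgfbr3 was the only 1 of the 9 genes with H3K27me3 at a start in EA-HFSCs and not in non-EA-HFSCs, as were 2.58% of all genes. With a score of at least 100, the peaks at the start were lost and 4 peaks in introns 1 and 2 remained. H3K9me3 covered 1792 bp over the start of Tgfbr3 in EA-HFSCs, with a score of 121, and smaller peaks lay in introns 1 and 3. In non-LC-HFSCs it covered 502 bp in intron 14.

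**Figure D2:**
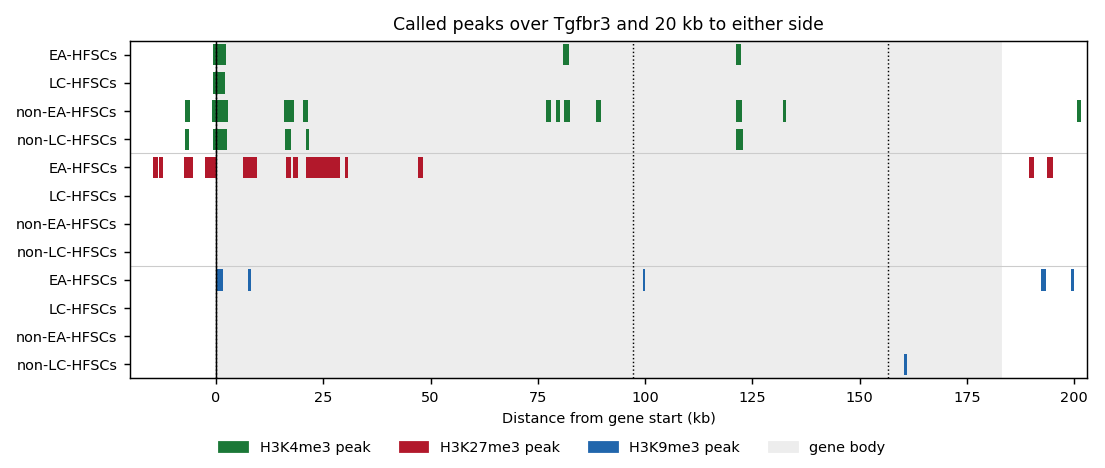
Peaks over Tgfbr3 (grey) and 20 kb to either side, by mark and population. The x axis is the distance from the gene start in kb, and solid and dotted lines are transcript starts. The red H3K27me3 peaks between 6.3 and 48.2 kb appear in the EA-HFSC row alone. The green H3K4me3 peaks inside the gene are missing in LC-HFSCs apart from the start peak. In the other rows these inner peaks scored 52.3 to 245, where the lowest score kept was 50.

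Of the activin subunit genes, Inhba (chr13:16103684-16119044, plus strand, 5 exons), which encodes the beta A subunit, had the narrowest H3K4me3 start peaks of the 9 genes in every population. They were 2310 bp in EA-HFSCs, 1772 bp in LC-HFSCs, 1734 bp in non-EA-HFSCs and 1591 bp in non-LC-HFSCs, wider than at only 11.2% to 22.9% of genes. Inhba also had a separate H3K4me3 peak over exon 4 and the start of intron 4, 5.1 to 6.5 kb downstream of the gene start, in every population. This internal peak was 1261 bp wide in EA-HFSCs, 1432 bp in LC-HFSCs, 1099 bp in non-EA-HFSCs and 1276 bp in non-LC-HFSCs. In LC-HFSCs its score was 52.4, close to the smallest score kept for H3K4me3. The nearest H3K27me3 peak was 103 kb away in EA-HFSCs and farther in the other populations, and the only H3K9me3 peak was 582 bp wide in intron 4 in EA-HFSCs. Of the 9 genes, Inhba was thus the only 1 with no mark but H3K4me3 at its starts in all 4 populations.

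Inhbb (chr1:121312042-121318825, minus strand, 2 exons), which encodes the beta B subunit, had a single H3K4me3 peak in HFSCs and a split one in non-HFSCs. It had H3K27me3 in non-HFSCs only. In EA-HFSCs a single H3K4me3 peak of 6386 bp ran from 2017 bp upstream to 4368 bp downstream of the gene start, and in LC-HFSCs a single peak of 5102 bp ran from 1886 bp upstream to 3215 bp downstream. In non-EA-HFSCs there were peaks of 2204 and 2174 bp with a gap around 1 kb downstream of the start, and in non-LC-HFSCs peaks of 2328 and 1957 bp that all but touched. The covered length within 3000 bp of the start differed less, at 5018 bp in EA-HFSCs and 4040 bp in non-EA-HFSCs. That ratio was 1.24, with 63.1% of genes lower. In late catagen the lengths were 4887 and 4097 bp, a ratio of 1.19 with 77.1% of genes lower. H3K27me3 was called in non-EA-HFSCs over 2058 bp from 1189 to 3246 bp downstream, centred in intron 1, with a score of 183. In non-LC-HFSCs it was called over 1021 bp of the same stretch and over 966 and 1527 bp upstream of the start, with scores of 46.9 to 54.5. The HFSC lists had no H3K27me3 peak at Inhbb, the nearest being 58.9 kb away in EA-HFSCs and 583 kb in LC-HFSCs. No H3K9me3 was found at Inhbb in any population.

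Fst (chr13:115242470-115249159, minus strand, 6 exons) had the widest H3K4me3 peaks of the 9 genes in 3 of 4 populations, and in EA-HFSCs only that of Inhbb was wider. They measured 6106 bp in EA-HFSCs, 5551 bp in LC-HFSCs, 6455 bp in non-EA-HFSCs and 5855 bp in non-LC-HFSCs, and ran from 2.2 to 2.3 kb upstream to 3.4 to 4.2 kb downstream of the gene start, which is 50.6% to 62.8% of the gene body. Their scores stood at percentiles 98.9 to 99.5 of their lists. Outside LC-HFSCs the score was 3100, a tied value, and tied peaks took the same percentile. Tgfb1, Tgfb2 and Tgfbr2 had this score in non-EA-HFSCs too, and so did Tgfb1 in non-LC-HFSCs. Inside this domain, non-EA-HFSCs had H3K27me3 peaks of 2257 and 1909 bp. In non-LC-HFSCs, peaks of 1498 and 1794 bp lay inside it, a peak of 1762 bp with a score of 186 lay on it over 84.1% of its width, and a peak of 724 bp lay beyond its downstream end. H3K27me3 was not called at Fst in either HFSC list, where the nearest peak was 774 kb away in EA-HFSCs and 1248 kb away in LC-HFSCs. H3K9me3 was called over 2432 and 785 bp in EA-HFSCs and over 526 bp upstream in non-LC-HFSCs.

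Read across the 9 genes, H3K27me3 lay at a start of 1 gene in EA-HFSCs (Tgfbr3), 0 in LC-HFSCs, 3 in non-EA-HFSCs (Tgfb2, Inhbb and Fst) and 2 in non-LC-HFSCs (Inhbb and Fst). The shares of all genes were 14.0%, 3.73%, 16.8% and 12.9%. Over the gene body the counts were the same, against 14.7%, 3.81%, 17.0% and 13.4% of all genes. With so few genes, the counts in the HFSC populations lie near these shares. The 3 genes with H3K27me3 in non-EA-HFSCs had none in EA-HFSCs. Of the 3760 genes with H3K27me3 at a start in non-EA-HFSCs, 1199 had none in EA-HFSCs, which is 5.36% of all genes. Tgfbr3, the 1 gene with H3K27me3 in EA-HFSCs, was free of it in the LC-HFSC list, and of all genes with H3K27me3 in EA-HFSCs 26.1% kept it. With a score of at least 100, Inhbb in non-EA-HFSCs and Fst in non-LC-HFSCs were the start peaks of H3K27me3 that remained. With equal numbers of top-scoring peaks in the 4 lists, 0 of the 9 genes had H3K27me3 in any population.

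Since 9 of 9 genes had H3K4me3 at a start in every population, each gene with H3K27me3 at a start had both marks by construction. Counts of the pair, often called bivalent, therefore only repeat those of H3K27me3. They were 1 gene in EA-HFSCs, 0 in LC-HFSCs, 3 in non-EA-HFSCs and 2 in non-LC-HFSCs. The shares of all genes were 8.89%, 1.30%, 10.8% and 6.60%, where only 55.9% to 62.4% of genes had H3K4me3 at a start. In non-EA-HFSCs the 4 H3K27me3 peaks at starts lay whole within H3K4me3 peaks, sharing 1205 bp at Tgfb2, 2058 bp at Inhbb and 4166 bp at Fst. In non-LC-HFSCs the shared length was 1954 bp at Inhbb and 4773 bp at Fst. These populations mix cell types, so that marks on the same cells and marks on different cells cannot be told apart.

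**Figure D3:**
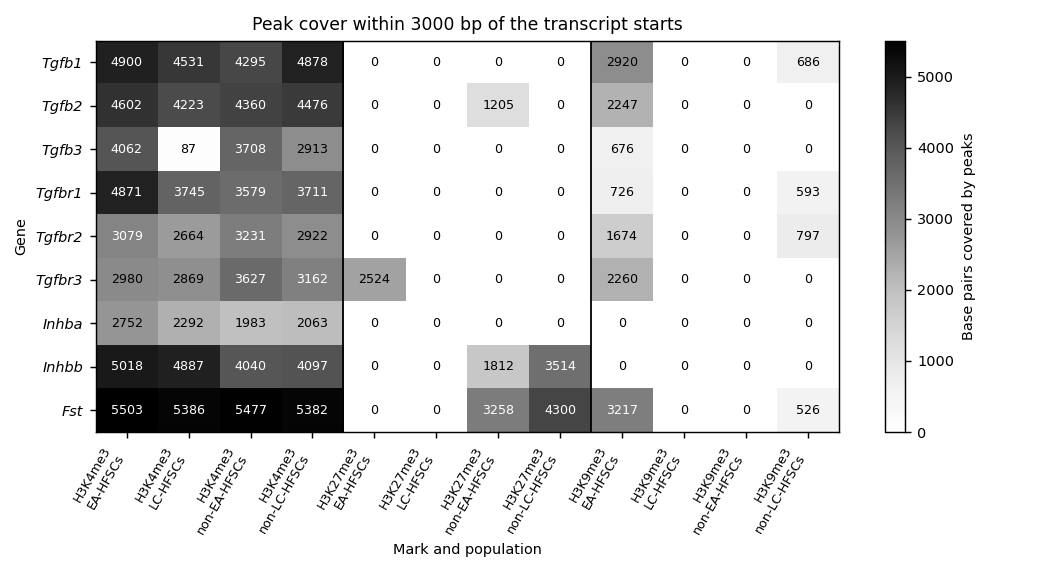
Length covered by peaks within 3000 bp of the transcript starts, in bp, for each of the 9 genes (rows) in the 12 lists (columns), with darker cells for more covered bp and the value printed in each cell. H3K4me3 covers 1983 to 5503 bp except at Tgfb3 in LC-HFSCs (87 bp), and the H3K27me3 and H3K9me3 columns of LC-HFSCs hold 0 for every gene.

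H3K9me3 lay at a start of 7 genes in EA-HFSCs, 0 in LC-HFSCs, 0 in non-EA-HFSCs and 4 in non-LC-HFSCs, against 47.9%, 0.505%, 4.14% and 14.1% of all genes. The 7 genes were the TGF-beta ligands, the receptors and Fst, and the 4 were Tgfb1, Tgfbr1, Tgfbr2 and Fst. Over the gene body the counts were 7, 0, 1 and 3, against 51.1%, 1.46%, 13.4% and 22.2%. None of the 7 genes with H3K9me3 in EA-HFSCs had it in LC-HFSCs, and of all such genes 0.765% did. In EA-HFSCs, 9 of the 10 H3K9me3 peaks at starts lay whole within an H3K4me3 peak of the same population, and in non-LC-HFSCs 4 of 4 did. The EA-HFSC peak outside H3K4me3 was 468 bp wide and lay in intron 3 of Tgfbr3, near an internal transcript start. Counted by gene, 7 of 7 in EA-HFSCs and 4 of 4 in non-LC-HFSCs had an H3K9me3 peak at a start that shared at least 1 bp with an H3K4me3 peak, as did 86.6% and 61.0% of all genes with H3K9me3 at a start. Without the EA-HFSC list, which stands apart, the 4 genes of non-LC-HFSCs are what is left of H3K9me3 at the starts. With a score of at least 100, 3 genes remained in EA-HFSCs and 0 in non-LC-HFSCs, and with equal numbers of top-scoring peaks 0 remained in any population.

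**Figure D4:**
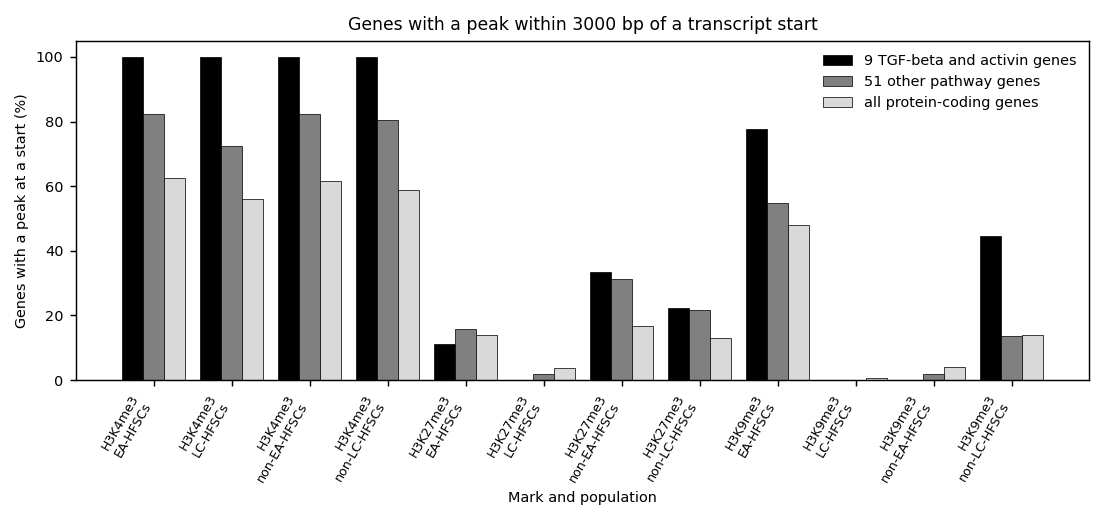
Share of genes with a peak within 3000 bp of a transcript start, in percent, for the 9 genes (black), 51 other genes of the pathway (dark grey) and all 22367 protein-coding genes (light grey) in each of the 12 lists. The black bars are at 100% for H3K4me3 in every population, and for H3K9me3 the EA-HFSC bars are the tallest in each group of genes.

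Between early anagen and late catagen, 9 of 9 genes had an H3K4me3 peak within 3000 bp of a start in both lists, as did 89.3% of all genes that had it in EA-HFSCs. With a window of 1000 bp the count was 8, since the LC-HFSC peak counted for Tgfb3 lies at its neighbour. The covered length was smaller in LC-HFSCs at 9 of 9 genes and at 90.8% of all genes. The LC-HFSC length divided by the EA-HFSC length gave 0.979 for Fst, 0.974 for Inhbb, 0.963 for Tgfbr3, 0.925 for Tgfb1, 0.918 for Tgfb2, 0.865 for Tgfbr2, 0.833 for Inhba, 0.769 for Tgfbr1 and 0.0214 for Tgfb3, with a median of 0.918 against 0.804 over all genes. With a window of 1000 bp, which the peaks of EA-HFSCs and LC-HFSCs both fill at several genes, the length was smaller in LC-HFSCs at 3 genes only (Tgfb2, Tgfb3 and Inhba), equal at 5, and larger at Tgfbr3, with a ratio of 1.06. In the non-HFSCs the ratio of the later to the earlier age was 0.786 to 1.14 and fell below 1 at 4 of the 9 genes and at 81.9% of all genes, with a median of 1.01 against 0.877 over all genes. Tgfb3 had the lowest ratio in both pairs of populations.

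At the same age, the EA-HFSC to non-EA-HFSC ratio of H3K4me3 length ranged from 0.822 at Tgfbr3 to 1.39 at Inhba, with a median of 1.10 against 1.16 over all genes. The LC-HFSC to non-LC-HFSC ratio ranged from 0.0299 at Tgfb3 to 1.19 at Inhbb, with a median of 0.943 against 1.06 over all genes. The widest H3K4me3 peak of each gene was wider than the median gene of the same list at 6 of 9 genes in EA-HFSCs, 7 in LC-HFSCs, 7 in non-EA-HFSCs and 8 in non-LC-HFSCs. The median of the 9 was 4699, 3745, 3579 and 3162 bp in these populations, against 3123, 2588, 2571 and 2320 bp over all genes with a peak. Fst, Tgfb1 and Tgfb2 were above the median in every population, as was Tgfbr1, and Inhba was below it in every population.

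**Figure D5:**
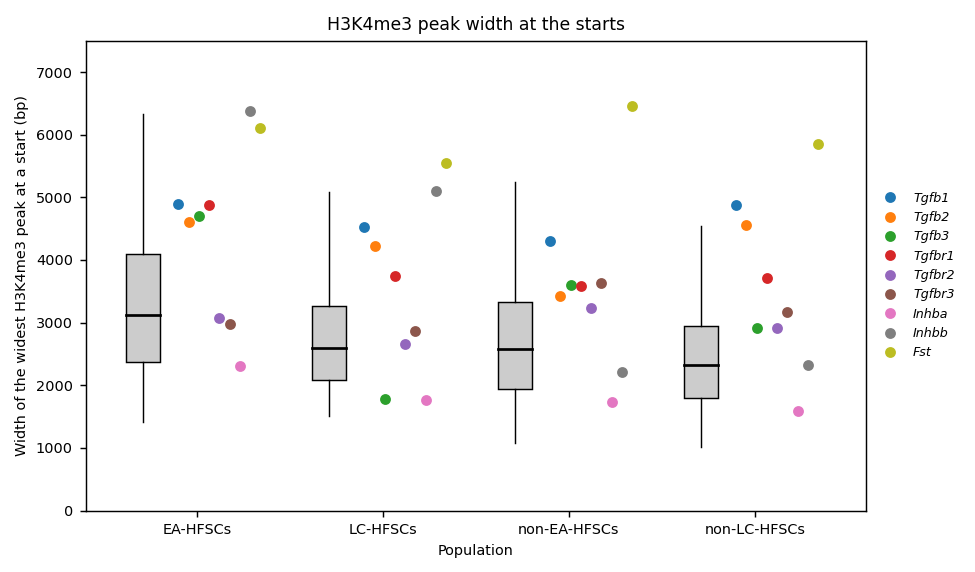
Width of the widest H3K4me3 peak at a start of each of the 9 genes (coloured points) in the 4 populations, in bp, beside all genes with a peak in that list (box from the 25th to the 75th percentile with the median as a line, whiskers from the 5th to the 95th). Fst lies at 5551 bp or more in every population, and the Tgfb3 point of LC-HFSCs is the 1773-bp peak of its neighbour. Inhbb lies at 6386 bp in EA-HFSCs and at 2204 bp in non-EA-HFSCs, where its H3K4me3 is split into 2 peaks.

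The 9 genes shared their pattern of presence over the 12 lists with many or few other genes. Tgfb1, Tgfbr1 and Tgfbr2 had the same pattern, H3K4me3 in every population with H3K9me3 in EA-HFSCs and non-LC-HFSCs. Each of them shared it with 1629 other genes, a count that includes the others of these members. The pattern of Tgfb3 was found in 5668 other genes and that of Inhba in 2507. For Tgfb3 the pattern includes H3K4me3 in LC-HFSCs only through the 87 bp of its neighbour's peak that touch the window. Its own start was under no H3K4me3 peak there. The patterns with H3K27me3 were rarer, with 148 other genes like Tgfb2, 130 like Inhbb, 93 like Tgfbr3 and 23 like Fst. By covered length, summed as absolute differences over the 12 lists, the most similar gene was Sema6a for Fst at 3767 bp, Auts2 for Inhbb at 4093 bp, Gna14 for Tgfbr3 at 2000 bp, Antxr1 for Tgfb2 at 1507 bp, Cdt1 for Tgfb3 at 1210 bp and Taf9b for Inhba at 152 bp. The most similar were Smek1 for Tgfb1 at 899 bp, Abtb1 for Tgfbr1 at 740 bp and 2310037I24Rik for Tgfbr2 at 671 bp.

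Of 51 further genes of the pathway, H3K4me3 lay at a start of 42 in EA-HFSCs, 37 in LC-HFSCs, 42 in non-EA-HFSCs and 41 in non-LC-HFSCs. These are 82.4%, 72.5%, 82.4% and 80.4% of the 51, against 62.4%, 55.9%, 61.7% and 58.8% of all genes. The Smads and intracellular regulators had it at 13 of 13 genes in every population, whereas the other ligands of the branch had it at 4 of 10 genes in EA-HFSCs, 2 in LC-HFSCs and 4 in each non-HFSC population. The classical target genes had it at 8, 7, 8 and 7 of 8, the extracellular and membrane modulators at 13, 12, 12 and 12 of 14, and the activin receptors and co-receptors at 4, 3, 5 and 5 of 6. H3K27me3 lay at 8, 1, 16 and 11 of the 51 genes in the same order of populations, and H3K9me3 at 28, 0, 1 and 7. For H3K27me3 these are 15.7%, 1.96%, 31.4% and 21.6%, against 14.0%, 3.73%, 16.8% and 12.9% of all genes. For H3K9me3 they are 54.9%, 0%, 1.96% and 13.7%, against 47.9%, 0.505%, 4.14% and 14.1%.

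The genes of this wider list with H3K4me3 in some populations only included Nodal, Lefty1, Acvr1c, Tdgf1 and Dcn. Nodal (a ligand), Lefty1 (an antagonist of Nodal) and Acvr1c (the type I receptor ALK7) had it in every population except LC-HFSCs, as Tgfb3 did at its own start. The Nodal peak was 987 bp in EA-HFSCs, 1175 bp in non-EA-HFSCs and 922 bp in non-LC-HFSCs. For Lefty1 these widths were 2625, 2057 and 1183 bp, and for Acvr1c 1889, 1240 and 596 bp. Tdgf1, the gene of the co-receptor Cripto, was marked in non-HFSCs only, by 1355 and 899 bp, and Dcn, which encodes the matrix proteoglycan decorin, in EA-HFSCs only, by 876 bp. Some of these calls were weak, since the lowest H3K4me3 score kept was 50. In non-LC-HFSCs the score was 68.9 for Nodal, 59.0 for Acvr1c and 55.5 for Tdgf1, and Dcn scored 89.8. A cut at 100 removes these calls. The other calls of these genes scored 114 or more, and the peaks over the Tgfb3 start 755 to 1559. Cdkn2b, the gene of the cell-cycle inhibitor p15, was the only 1 of the 51 with H3K27me3 in LC-HFSCs, where a peak of 10568 bp with a score of 50.5 reached 1445 bp into the window.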

How the data were processed

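The 12 lists came from 16 ChIP-seq samples. Per the labels and the study's methods, the authors trimmed single-end reads (Trimmomatic 0.22), aligned them with Bowtie2 to mm9, filtered and pooled them, and called peaks with MACS against IgG of the same population. The deposited score of a peak is 10 times the negative log10 of its p-value, and the lowest scores in the lists correspond to p-values of 1e-05 for H3K4me3 and 0.0001 for the other marks. Scores rest on read depth, which is not known from the lists, and were not compared between lists. The deposited positions are the other values used.

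Positions are 1-based in mm9. Genes, transcript starts, exons and introns came from GENCODE vM1 (of the longest transcript, for exon numbers), and sequence from the same assembly. A peak counted at 1 shared bp, within 3000 bp of any transcript start or over the gene body. Covered length is the union of peaks within the window. Shares over 22367 protein-coding genes on chromosomes 1 to 19, X and Y are the background. Intervals were counted with Python 3.11.15 and numpy 2.4.6, and 7 of 7 checks on 2000 simulated windows returned the known answers. With 1 list per population and mark, nothing was tested. The genes and gene lists were chosen with earlier results of these data known. Named were the 9 genes; the pathway genes with H3K27me3 or H3K9me3 at a start in LC-HFSCs, or with H3K4me3 in some but not all populations; and for each of the 9 the gene nearest in covered length around the gene start. Of the genes this names, 1 is not reported here. Genes with other roles, Cd34 included, were named as markers. The endothelial marker list had H3K4me3 at 1 of 4 genes in every population, and the bulge list at 7, 7, 6 and 6 of 7. The 7 alternatives were scores of at least 50 and of at least 100, equal numbers of top-scoring peaks, merging across gaps under 1000 bp, a shared length of at least 50% of the peak, a window of 1000 bp, and the gene start only.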

Additional observations from a re-analysis of the deposited data

Results flagged for a closer look

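For 5 genes the H3K4me3 length covered at the starts was smaller at the later age in HFSCs and larger at the later age in non-HFSCs, as at 16.5% of the 12281 genes with H3K4me3 at a start in all 4 populations. The difference between these changes (the change in HFSCs less that in non-HFSCs) was -1258 bp for Tgfbr1, -952 bp for Tgfb1, -540 bp for Inhba, -495 bp for Tgfb2 and -188 bp for Inhbb. In non-HFSCs the gains were 57 to 583 bp. With a window of 1000 bp the length in HFSCs was equal at both ages for Tgfb1, Tgfbr1 and Inhbb. The number of the 9 genes with H3K9me3 at a start moved from 7 to 0 in HFSCs and from 0 to 4 in non-HFSCs, a difference of -11 genes. Over all genes the shares moved the same ways, from 47.9% to 0.505% in HFSCs and from 4.14% to 14.1% in non-HFSCs. By covered length of H3K9me3, the difference was -3743 bp for Fst, -3606 bp for Tgfb1, -2471 bp for Tgfbr2 and -1319 bp for Tgfbr1, and 10.1% of all genes moved in these directions. These differences were not tested, since each population has 1 list per mark.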

How the results depend on the processing

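Of 331 values recomputed under the alternatives, 285 stayed within 1.5 times the reported value, 45 moved further and 1 turned. Counts of H3K4me3 did not move by that much under any of the 7 alternatives.

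Where only scores from 100 were kept, the members of the 9 genes with H3K27me3 at a start fell to 0 in EA-HFSCs, 1 in non-EA-HFSCs and 1 in non-LC-HFSCs, those with both H3K4me3 and H3K27me3 to the same 0, 1 and 1, and those with H3K27me3 over the body to 1 in each non-HFSC population. For H3K9me3, 3 remained at a start and 3 over the body in EA-HFSCs, 0 over the body in non-EA-HFSCs and 0 in either place in non-LC-HFSCs. Of the 51 pathway genes, H3K27me3 then lay at 0 in LC-HFSCs, 10 in non-EA-HFSCs and 6 in non-LC-HFSCs, and H3K9me3 at 7 in EA-HFSCs and 0 in either non-HFSC population. Where scores from 50 were kept, 1 of the 9 genes had H3K27me3 over the body in non-LC-HFSCs. In that population 4 pathway genes then had H3K9me3 at a start.

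With equal numbers of top-scoring peaks in each list of a mark (1909 for H3K27me3 and 1414 for H3K9me3), 0 of the 9 genes had either mark at a start or over the body, and 0 had both H3K4me3 and H3K27me3, in any population. H3K27me3 then lay at 2 pathway genes in EA-HFSCs, 4 in non-EA-HFSCs and 3 in non-LC-HFSCs, and H3K9me3 at 2, 0 and 0. The overlap of at least 50% and the window of 1000 bp each left 0 pathway genes with H3K27me3 in LC-HFSCs, and that window 0 with H3K9me3 in non-EA-HFSCs. With that window the LC-HFSC to EA-HFSC ratio of H3K4me3 length was 0 for Tgfb3 and 1.06 for Tgfbr3. The alternatives with fewer peaks lower the counts by construction, and for the other values the cause was not tested. No paired analysis was possible because there is 1 list per population and mark and the labels carry no replicate numbers.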

Other observations

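In the 20 kb upstream of Tgfbr3, an H3K4me3 peak about 6 to 7 kb from the gene start was called in non-EA-HFSCs (1008 bp) and non-LC-HFSCs (931 bp) and in neither HFSC list, and an H3K27me3 peak of 2265 bp with a score of 114 lay over the same stretch in EA-HFSCs. Among the other regulators of the pathway, Smad6, which encodes an inhibitory Smad, had H3K27me3 in non-HFSCs only, over 6149 bp at the earlier age and 4773 bp at the later, as Inhbb and Fst did. The H3K4me3 of Smad6 in non-EA-HFSCs was split into 2 peaks that covered 6656 bp at the starts, against 8165 bp in EA-HFSCs. The widest H3K4me3 peak of Smad6 was 8165 bp in EA-HFSCs, 7727 bp in LC-HFSCs, 4740 bp in non-EA-HFSCs and 2894 bp in non-LC-HFSCs. Ltbp2, the gene of a latent TGF-beta binding protein, had H3K4me3 peaks of 4216, 3913, 1957 and 1911 bp in these populations and H3K27me3 in non-HFSCs only. Both genes were picked after their values were seen, and no test was made.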
